A study of Mus musculus with 6 samples.

Results

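Schwann and glial lineage genes were followed in the gut of mouse embryos at stage E10.5, in wildtype embryos and in embryos without Ret, the receptor tyrosine kinase of the enteric neural crest. The 8 genes are Dhh, Ngfr, Fabp7, Cdh19, S100b, Pmp22, Gas7 and Egr2, and each matched 1 line of its own among 23233 gene lines. They were chosen by name with earlier results of these data known. Guts of wildtype embryos gave 3 samples, and guts homozygous for a Ret null allele gave another 3. The strain label of all 6 is C57BL/6J, and the embryos are called male. What the allele removes, whether embryos were pooled and whether litters differed is not given in the labels. The deposited table holds 1 FPKM value per genotype (fragments mapped, per transcript length and library size), so levels of different genes can be set side by side, no spread between samples can be given, and read depth is unknown.

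Crest cells that enter the gut give rise to both neurons and glia, and crest cells that travel along nerves as Schwann cell precursors give rise to the Schwann cells that ensheathe axons. Sox10 keeps these cells in a glial or progenitor state. Ngfr appears in crest cells and precursors, and Cdh19, Dhh and Fabp7 mark precursors. S100b appears later, and Egr2 turns on the myelin genes in Schwann cells.

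The targeted gene stood at 8.80 FPKM in wildtype gut and 0.0354 FPKM in Ret null gut. Xist, which female cells express, stood at 0.136 FPKM in wildtype gut and 31.8 FPKM in Ret null gut, and the 4 Y-linked genes followed (Ddx3y, Eif2s3y, Kdm5d and Uty) all fell, Ddx3y from 18.3 to 10.6 FPKM. These values go against the description of all embryos as male. With no value per sample, no result could be recomputed without particular libraries, and the part of sex in the results was not tested. Errors after ± are standard errors of the log2 fold change (Ret null over wildtype) implied by the authors' test statistic. A gene is said to fall, rise or change only where the q-value (the p-value adjusted over all tested genes) was under 0.05 in the authors' deposited table. Of 13430 tested lines, 8.88% passed as lower and 5.69% as higher in Ret null gut.

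Of the 8 genes, 4 fell in Ret null gut: Dhh, Cdh19, Ngfr and Gas7. Fabp7 and Pmp22 were tested and did not pass. S100b and Egr2, both under 1 FPKM in each genotype, were left untested by the authors. No member rose in the authors' Cuffdiff test, and 0 were higher at an unadjusted p under 0.05, which 9.91% of tested lines were. The 4 that fell are 4 of 6 tested members, beside 8.88% of all tested lines that passed as lower. Because the genes were chosen with earlier results of these data known, this comparison is a description and not an independent test. Cdh19, 1 of the 4, reached 1 FPKM in wildtype gut alone. The same 4 were lower at q under 0.01 (6.1% of all tested lines) and with a 1.5-fold minimum (5.23%). At q under 0.1 (10.6%) no other member was added. That looser threshold keeps every gene called at 0.05, so it could not remove a fall. They were also lower with a level of 1 FPKM or more in at least 1 genotype (8.76%). With 5 FPKM or more in at least 1 genotype 3 were lower (5.42% of tested lines), without Cdh19. Both minima were applied to the higher genotype, which was wildtype for these 4, so they do not test the falls apart from the wildtype level. Over all 8 genes the median log2 fold change was -0.47, beside -0.0029 over the 17613 lines above 0 in both genotypes. In whole gut, fewer cells of a type and less RNA per cell cannot be told apart. Markers of other tissues also differed, muscle Myog going from 17.0 to 1.07 FPKM and hepatic Alb from 0.433 to 72.8 FPKM. The part of such differences in the members' values was not tested. The plot of FPKM by gene and genotype shows the levels of the 8 genes.

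**Figure D1:**
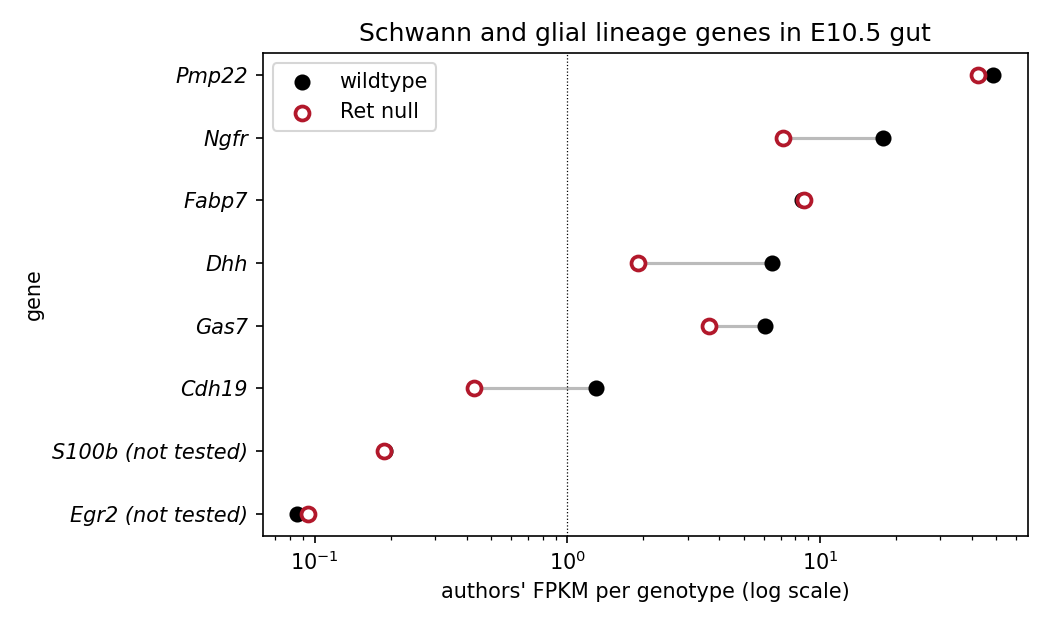
Authors' FPKM (horizontal, log scale) of the 8 genes in wildtype (filled) and Ret null (open) gut, 1 value per genotype, with a dotted line at 1 FPKM. Dhh, Ngfr, Gas7 and Cdh19 lie to the left of their wildtype values in Ret null gut, and the values of Fabp7, S100b and Egr2 nearly coincide.

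The levels spanned a wide range. In wildtype gut the order was Pmp22 (48.4 FPKM), Ngfr (17.7), Fabp7 (8.51), Dhh (6.47), Gas7 (6.05), Cdh19 (1.30), S100b (0.190) and Egr2 (0.0855 FPKM). In Ret null gut Fabp7, at 8.66 FPKM, stood above Ngfr, at 7.13 FPKM, and Gas7, at 3.63 FPKM, above Dhh, at 1.91 FPKM. Whether neighbours in this order differ beyond the spread of samples could not be examined. Pmp22 alone made up 54.5% of the summed FPKM of the 8 genes in wildtype and 65.6% in Ret null gut. Without it the sum went from 40.3 to 22.0 FPKM.

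Dhh encodes desert hedgehog, the hedgehog ligand that Schwann cells and their precursors secrete. It went from 6.47 FPKM in wildtype to 1.91 FPKM in Ret null gut, a log2 fold change of -1.76 ± 0.35 for which the authors' deposited table gives q = 0.000775, its minimum. Among 3654 other tested lines with a mean level within 2-fold of Dhh, 13.7% passed as lower and 1.2% had a log2 fold change at least as low. The line covers chromosome 15, 98893027 to 98898540 (mm10), on the minus strand.

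Ngfr encodes the neurotrophin receptor p75, which is used to sort enteric crest cells. Its level was 17.7 FPKM in wildtype gut and 7.13 FPKM in Ret null gut, and its log2 fold change of -1.31 ± 0.21 also had q = 0.000775 in the authors' deposited table. Of 5533 other tested lines within 2-fold of its level, 8.19% passed as lower and 0.723% were at least as low. Ngfr lies on chromosome 11, 95568821 to 95587698, on the minus strand. The combined error of the Dhh and Ngfr changes was 0.41, and the changes differed by -0.44, which is 1.08 times that error.

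The promoters of Dhh and Ngfr are shown because these are the falls with the smallest errors relative to their size, and that of Fabp7 because its level hardly differed between genotypes. Each is the 250 bases before a RefSeq start (GRCm38.p6, the same build as mm10), 5′ to 3′ on the gene's strand. Capitals mark the GC box letters GGGCGG and the letters ACAANG on either strand. The latter are a loose form of the Sox core, in which N is any base. The windows are chr15:98898541-98898790 for Dhh, chr11:95587699-95587948 for Ngfr and chr10:57784673-57784922 for Fabp7.
Dhh: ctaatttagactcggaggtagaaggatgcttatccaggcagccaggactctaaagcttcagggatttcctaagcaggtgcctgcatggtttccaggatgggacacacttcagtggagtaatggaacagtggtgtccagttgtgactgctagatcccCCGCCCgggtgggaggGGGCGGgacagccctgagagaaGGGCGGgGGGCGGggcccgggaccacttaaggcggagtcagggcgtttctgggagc
Ngfr: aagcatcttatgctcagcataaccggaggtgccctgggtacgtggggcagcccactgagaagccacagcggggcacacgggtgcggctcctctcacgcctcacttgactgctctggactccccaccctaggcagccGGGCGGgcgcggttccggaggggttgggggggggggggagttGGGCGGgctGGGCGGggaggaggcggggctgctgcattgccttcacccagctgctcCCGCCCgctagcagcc
Fabp7: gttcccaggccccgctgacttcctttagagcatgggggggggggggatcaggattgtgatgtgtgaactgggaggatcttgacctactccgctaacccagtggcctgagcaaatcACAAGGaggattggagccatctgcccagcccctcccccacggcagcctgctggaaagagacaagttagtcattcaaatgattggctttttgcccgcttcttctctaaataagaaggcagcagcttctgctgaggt

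Dhh and Ngfr each held 4 GC boxes in this window and Fabp7 held 0. Over 32817 promoter windows of this length, 32.7% held at least 1 GC box and 4.09% held 4 or more. The loose Sox letters were found once in the Fabp7 window, as ACAAGG, and in neither of the others, and 36.3% of all windows held them. The letters GCGNGGGCG, which Egr factors prefer, were in 0 of the 3 windows and in 4.7% of all windows. These Egr letters can overlap a GC box. GC content was 59.6% for Dhh, 70.4% for Ngfr and 54.8% for Fabp7, beside a median of 52.4%. RefSeq promoter entries matched 6 of the 8 genes, all but Cdh19 and Gas7. A match of letters is a description and not a binding site.

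Cdh19 encodes a type II cadherin that marks Schwann cell precursors. It stood at 1.30 FPKM in wildtype gut and 0.429 FPKM in Ret null gut, a log2 fold change of -1.60 ± 0.58, for which the authors' deposited table gives q = 0.00145. Among 1393 other tested lines within 2-fold of its level, 15.1% passed as lower and 5.17% were at least as low. Cdh19 reached 1 FPKM in wildtype gut alone, and 13321 of the 13430 tested lines reached it in at least 1 genotype, so a line of this kind enters the test through its higher value. In all, 718 tested lines were under 1 FPKM in 1 genotype only, and 196 of these passed as lower and 125 as higher. Of the genes named below, Foxd3, Ptprz1, Mal, Cdh9, Chrna3, Mitf and Wif1 likewise fell to under 1 FPKM. Pllp, Fabp1, Lhx2 and Alb rose from under 1 FPKM. Reading the deposited statistic as a standard normal value gives another p, called the normal p here, by which 2.78% of tested lines were lower and 1.72% higher. Cdh19 did not pass by it, at an adjusted p of 0.105, while Dhh, Ngfr and Gas7 did. With 1 FPKM added to both genotypes its log2 fold change was -0.69. Its line covers chromosome 1, 110889195 to 110977372, on the minus strand.

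Gas7 encodes growth arrest-specific 7, an F-BAR protein that binds actin and membranes and is also made by neurons. It went from 6.05 FPKM in wildtype to 3.63 FPKM in Ret null gut, a log2 fold change of -0.74 ± 0.22 with q = 0.000775 in the authors' deposited table. Among 3963 other tested lines within 2-fold of its level, 13% passed as lower and 6.08% were at least as low. The change of Dhh minus that of Gas7 was -1.02 ± 0.42 on the log2 scale. The deposited line spans chromosome 11, 67532998 to 67688992, on the plus strand, while the RefSeq gene starts at 67453257, so part of the annotated gene is outside the line.

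Pmp22 encodes peripheral myelin protein 22, a membrane protein of compact myelin that many embryonic mesenchymal and epithelial cells also make. It was the highest of the 8 genes, at 48.4 FPKM in wildtype gut and 42.1 FPKM in Ret null gut, above 93.4% and 91.8% of all lines. Its log2 fold change of -0.20 ± 0.17 did not pass (q = 0.265 in the authors' deposited table). The change of Dhh lay below that of Pmp22 by -1.56 ± 0.39 and that of Ngfr by -1.11 ± 0.27. Pmp22 lies on chromosome 11, 63131510 to 63159546, on the plus strand.

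Fabp7 encodes the brain-type fatty acid binding protein of radial glia and crest-derived glial precursors. It stood at 8.51 FPKM in wildtype gut and 8.66 FPKM in Ret null gut, a log2 fold change of 0.03 ± 0.33 that did not pass (q = 0.977 in the authors' deposited table). Of 5093 other tested lines within 2-fold of its level, 59% had a log2 fold change at least as low. The difference of Dhh from Fabp7 was -1.78 ± 0.49 and that of Ngfr from Fabp7 was -1.34 ± 0.40. Its sign turned when each genotype was scaled to the same summed FPKM (-0.03). The gene covers chromosome 10, 57784923 to 57788450, on the plus strand, exactly as in RefSeq.

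S100b and Egr2, the markers of later glia and of myelinating Schwann cells, had low levels, under 1 FPKM in each genotype. S100b, a calcium-binding protein, stood at 0.190 FPKM in wildtype gut and 0.188 FPKM in Ret null gut. Egr2, a zinc finger factor, stood at 0.0855 and 0.0941 FPKM. Both were left untested by the authors, so no error can be given, and 33.4% of all lines lay below S100b and 29.2% below Egr2 in wildtype gut. They lie on chromosome 10, S100b at 76253836 to 76261319 and Egr2 at 67537869 to 67542188, both on the plus strand. None of the 8 genes is on the chromosome of Ret, and no other line of the table overlaps any of the 8. GENCODE vM21 has antisense genes that overlap the spans of Dhh and Gas7, the genes Dip2a over S100b and Glp2r over Gas7 on the other strand, and on the same strand the neighbour Rhebl1 over Dhh and the unconfirmed genes Gm38255 and Gm36944 over Cdh19. In the authors' test neither Dip2a (0.06 on the log2 scale) nor Rhebl1 (-0.24) passed, and Glp2r was not tested. Whether the authors counted by strand is not given in the sources used here.

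Other markers of crest-derived glia were mostly lower. Of 19 such genes 17 were tested, 10 fell, 1 rose and 6 did not pass, beside 8.88% of all tested lines lower and 5.69% higher. The median log2 fold change of all 19 was -0.53. This list, too, was chosen with earlier results of these data known. The falls covered the progenitor factors Sox10 (from 9.15 to 2.89 FPKM) and Foxd3 (from 2.24 to 0.778 FPKM), and Itga4, an integrin subunit of migrating crest cells (from 5.79 to 2.88 FPKM). The changes of Dhh, Cdh19 and Ngfr differed from that of Sox10 by -0.10 ± 0.46, 0.06 ± 0.65 and 0.35 ± 0.37, each within its combined error, and that of Gas7 by 0.92 ± 0.37. These combined errors treat the genes as independent although they share libraries.

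Among the other glial markers, Ptprz1, a receptor phosphatase, changed by -1.06 ± 0.39 on the log2 scale and Gfra3, the artemin co-receptor of Schwann cell precursors, by -0.97 ± 0.37 (both with q = 0.00206 in the authors' deposited table). Slc1a3, a glial glutamate transporter, fell by 0.56 on the log2 scale, Metrn, a secreted glial factor, by 0.53 and Moxd1, a crest-lineage monooxygenase, by 0.53. Erbb3, the neuregulin receptor on which Schwann cell precursors depend, went from 6.56 to 5.04 FPKM (q = 0.0484 in the authors' deposited table). Sox2, which foregut endoderm also expresses, was the 1 gene that rose, from 2.25 to 8.63 FPKM. For Sox2 and for the markers that fell, the part of cells other than crest glia was not tested. Serpine2 and Apoe, the most abundant genes that did not pass, had log2 fold changes of -0.18 and 0.17.

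The size of these falls was uneven. Dhh lay below Erbb3 by -1.37 ± 0.43 on the log2 scale, while Gas7 differed from Erbb3 by -0.36 ± 0.33. With the normal p, 3 of the other glial markers were lower (Sox10, Foxd3 and Itga4) and 1 was higher (Sox2), and the other 7 calls of this list were lost.

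**Figure D2:**
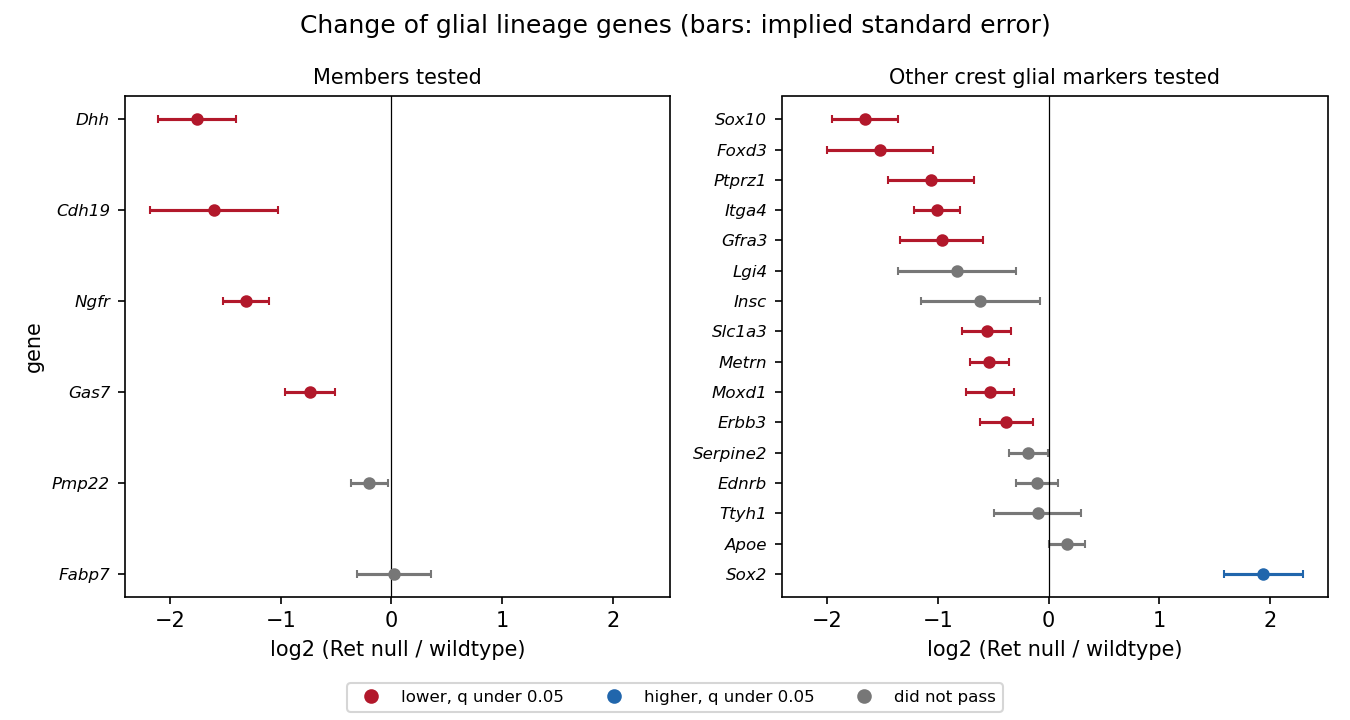
Log2 fold change (Ret null over wildtype, horizontal) of the tested members (left) and 16 of the other tested glial markers (right), with bars of the implied standard error and colour by call. Dhh, Cdh19 and Ngfr lie beside Sox10 and Foxd3 at the low end, and Sox2 alone is higher, at 1.94.

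Myelin genes did not move in 1 direction. Of 13 myelin sheath genes 8 were tested, 1 fell and 2 rose, beside 8.88% of all tested lines lower and 5.69% higher. Counts this small are not read as a change of the list. The median log2 fold change of all 13 was -0.03. Mal, a proteolipid of myelin and of epithelia, fell from 1.34 to 0.368 FPKM. Pllp, a plasmolipin of myelin and epithelia, rose from 0.348 to 1.36 FPKM (q = 0.00753 in the authors' deposited table), and Gjb1, a connexin of Schwann cells and hepatocytes, rose from 1.64 to 3.91 FPKM (q = 0.00318 in the authors' deposited table). The abundant genes that did not pass were Cnp (9.97 and 8.0 FPKM) and Prx (4.06 and 4.03 FPKM).

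Among 13 regulators around Egr2, 9 were tested, 2 fell and 1 rose, beside 8.88% of all tested lines lower and 5.69% higher. Such small counts are not read as a change of the network. The median of all 13 was 0.07. Nab2, a corepressor that binds Egr factors, went from 27.0 to 19.4 FPKM, and Zeb2, a crest and Schwann cell factor, from 15.2 to 10.2 FPKM, with q of 0.0105 and 0.00145 in the authors' deposited table. Id4, an inhibitor of differentiation, rose from 7.43 to 10.4 FPKM (q = 0.044 in the authors' deposited table). Id2 and Nfatc4, the most abundant that did not pass, had log2 values of 0.23 and 0.01, and that of Nfatc4 turned to -0.04 with equal summed FPKM. With the normal p none of the Egr2 network passed, and the 1 myelin gene that did was Gldn, a node of Ranvier protein named after its value was seen. It went from 1.32 to 0.158 FPKM and had q = 0.244 in the authors' deposited table.

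In the hedgehog pathway Dhh went the other way from its sister ligands. Of 13 other pathway genes, all tested, 5 rose, 2 fell and 6 did not pass, with a median log2 fold change of 0.21. Over all tested lines 5.69% were higher and 8.88% lower. Shh and Ihh, the ligands made by gut endoderm, rose by 1.39 ± 0.20 and 1.96 ± 0.33 on the log2 scale. In wildtype gut Dhh stood between Ihh at 2.13 FPKM and Shh at 8.60 FPKM, and in Ret null gut, at 1.91 FPKM, it was below both (Ihh at 8.29 and Shh at 22.5 FPKM).

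The hedgehog target genes Gli1 (from 28.5 to 51.4 FPKM) and Hhip (from 3.76 to 6.39 FPKM) also rose. The co-receptors Boc and Gas1 fell by 0.33 and 0.29 on the log2 scale, with q of 0.0229 and 0.0362 in the authors' deposited table. Neither passed with the normal p. The signal transducer Smo and the receptor Ptch1 did not pass (0.12 and 0.27 on the log2 scale). Beside these values, 7 of 8 gut endoderm markers and 6 of 8 gut mesenchyme markers rose in the same comparison, and the part of these tissues in the hedgehog values was not tested.

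In the neurotrophin pathway the receptors Ntrk2 and Ntrk3 fell beside Ngfr. Of 14 other genes, all tested, 2 fell, 0 rose and 12 did not pass, beside 8.88% of all tested lines lower and 5.69% higher. A count this small is near those shares and is not read as a change of the pathway. Ntrk2, the receptor of BDNF, went from 6.60 to 3.11 FPKM (-1.08 ± 0.23), and Ntrk3, the receptor of neurotrophin 3, from 8.98 to 5.48 FPKM (-0.71 ± 0.24), each with q = 0.000775 in the authors' deposited table. The abundant p75 partners Ngfrap1 and Maged1 had log2 fold changes of 0.17 and -0.10. The median of the 14 genes was -0.14, and with the normal p only Ntrk2 was lower.

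**Figure D3:**
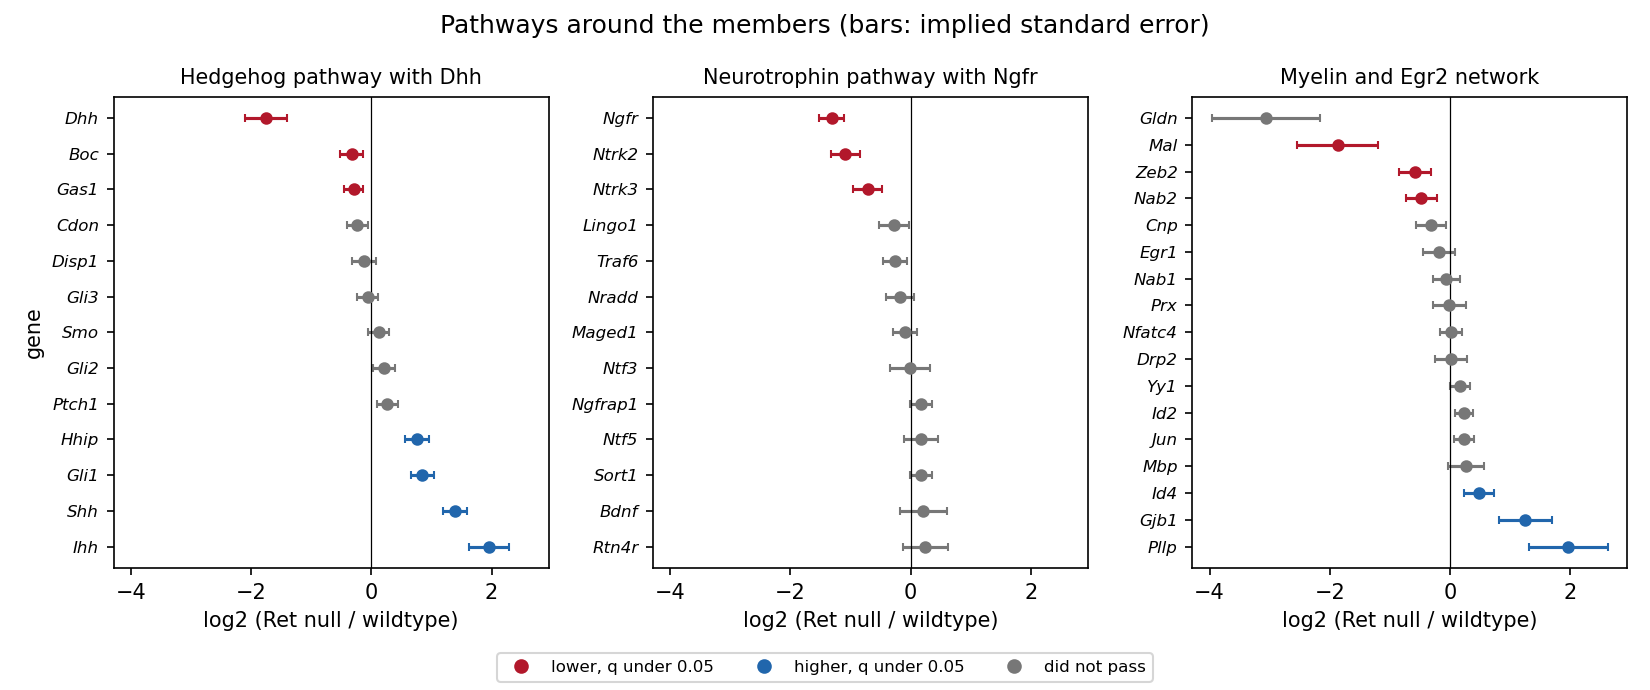
Log2 fold change (Ret null over wildtype, horizontal) with implied standard errors for most tested genes of the hedgehog pathway with Dhh, the neurotrophin pathway with Ngfr, and the myelin and Egr2 network lists. Dhh is the lowest point of the first panel, opposite Shh and Ihh, and Ngfr the lowest of the second, above Ntrk2 in the order drawn.

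Relatives of the 8 genes by protein family differed in direction from list to list. The counts are small, and of all tested lines 8.88% were lower and 5.69% higher. Of 12 other type II cadherins 8 were tested and 4 fell, with 0 rising and a median of -0.74 over all 12. Cdh6, a cadherin of early crest and nephric cells, went from 4.79 to 1.59 FPKM (-1.59 ± 0.38), as low as Cdh19 within the errors. Cdh10, Cdh9 and Cdh8, cadherins of neural tissue, had log2 fold changes of -1.14, -1.18 and -0.98, with q of 0.000775, 0.0182 and 0.00318 in the authors' deposited table. The most abundant members, Cdh11 of mesenchyme and Cdh5 of endothelium, did not pass (-0.25 and -0.05).

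Of 16 genes listed with the S100 family 11 were tested, 5 fell and 0 rose, while S100b itself was untested. S100a8 and S100a9, which are made by myeloid cells, went from 18.1 to 7.03 FPKM and from 17.9 to 7.25 FPKM. S100a10, the annexin A2 partner, went from 127 to 73.1 FPKM, and S100a11 and S100a16 had log2 fold changes of -0.36 and -0.49. S100a8 had q = 0.00263, S100a9 0.00145, S100a11 0.00881 and S100a16 0.00924 in the authors' deposited table. S100a6 and S100pbp, the latter a binding partner and not an S100 protein, did not pass (-0.11 and -0.13 on the log2 scale).

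Of 8 other fatty acid binding protein genes 5 were tested, 2 rose and 0 fell, beside Fabp7 with hardly any difference. Fabp1 of liver and intestine went from 0.530 to 4.61 FPKM and Fabp4 of adipose and endothelial cells from 7.64 to 13.8 FPKM, with q of 0.0393 and 0.0109 in the authors' deposited table. Fabp5 and Fabp3, the most abundant that did not pass, had log2 fold changes of 0.10 and -0.15. Of 5 relatives of Pmp22 4 were tested and 0 passed, with Emp3 at 0.24 and Emp1 at 0.02, the latter turning to -0.03 with equal summed FPKM.

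Of 16 matched F-BAR genes other than Gas7, 14 were tested, 0 fell and 2 rose. These were Trip10 (0.34 ± 0.23) and Fcho1 (0.63 ± 0.35), with q of 0.0445 and 0.0211 in the authors' deposited table. The abundant Fnbp1l and Pacsin2 had log2 fold changes of -0.01 and 0.18. In the neurotrophin and family lists with 0 calls in a direction, 0 genes were called that way at an unadjusted p under 0.05 (13.5% of all tested lines were lower by it) and 0 with the normal p. By the normal p the family calls were Cdh6, Cdh10, S100a8, S100a9 and S100a10 as lower and Fabp1 as higher.

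**Figure D4:**
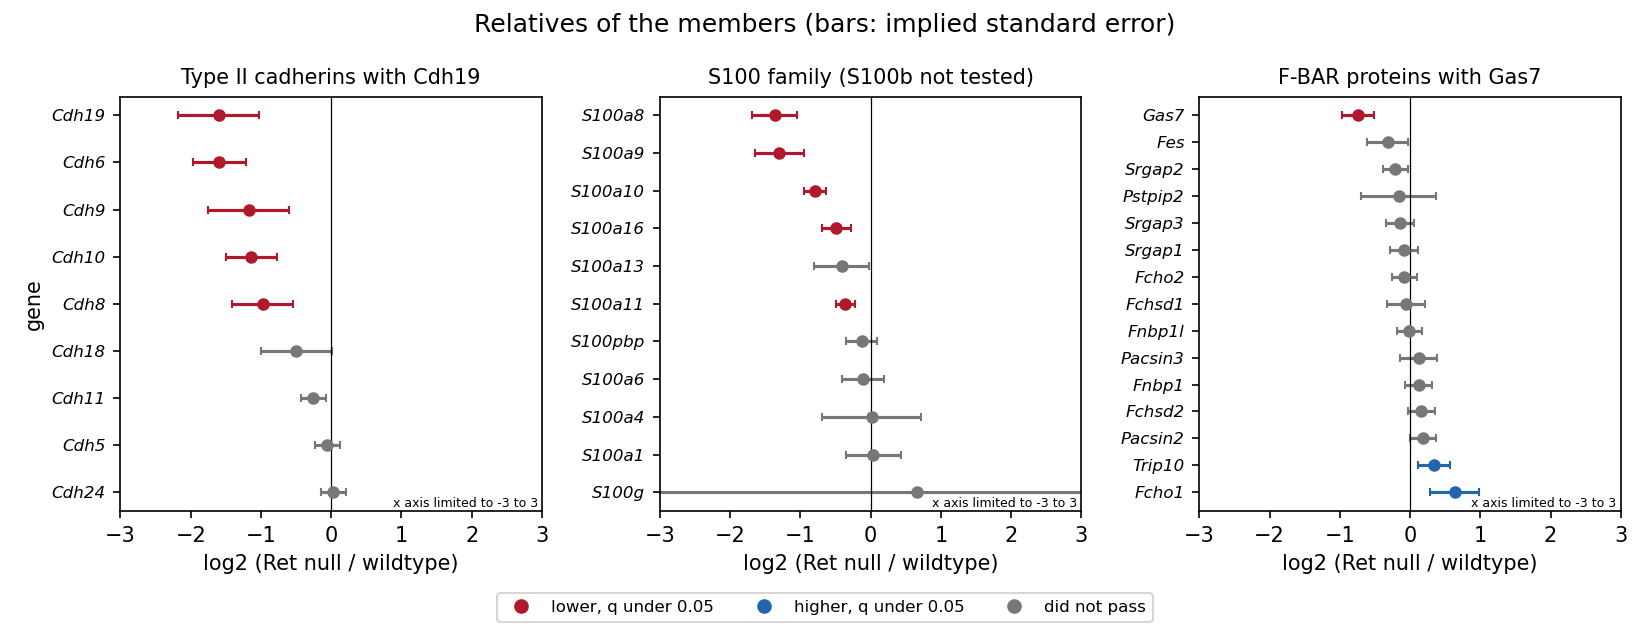
Log2 fold change (Ret null over wildtype, horizontal, limited to -3 to 3) with implied standard errors for tested type II cadherins with Cdh19, the S100 list and F-BAR proteins with Gas7. The bar of S100g runs past the axis, Cdh19 and Cdh6 lie together at -1.60 and -1.59, and Gas7, at -0.74, is the lowest of the F-BAR panel.

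Markers of other cell types moved in the same comparison, and their part in the members' values was not tested. Beside the counts below, 8.88% of all tested lines were lower and 5.69% higher. Of 10 neuron and neuroblast markers 9 fell, and their summed level went from 127 to 58.0 FPKM, with none listed at 0. Among them Chrna3, a nicotinic receptor subunit, had a log2 fold change of -2.60. Of 10 somite and skeletal muscle markers 8 of 9 tested fell, from a summed 92.6 to 14.2 FPKM, with Myl1 at -4.30, Myog at -3.99 and Acta1 at -3.72.

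All 8 hepatic markers rose, from a summed 22.1 to 310.1 FPKM, among them Alb (7.39), Afp (4.99) and Apoa2 (4.23). The 8 endoderm markers went from 131 to 277 FPKM in sum, with Foxa2 at 2.42, Foxa1 at 1.89 and Krt8 at 1.18. The 8 mesenchyme markers went from 221 to 543 FPKM, with Barx1 at 4.61, Myh11 at 2.07 and Actg2 at 1.5. Of 7 endothelial markers 3 fell (Emcn at -0.62, Kdr at -0.47 and Tek at -0.47), with sums of 179 and 149 FPKM. In these lists 0 genes were called the other way, also at an unadjusted p under 0.05 and with the normal p. With the normal p 7 neuronal and 8 muscle markers were lower, 8 hepatic, 7 endoderm and 5 mesenchyme markers were higher, and 0 endothelial markers passed.

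Other cell types near nerves can also hold glial genes, and few genes of their marker lists were tested. The counts are small and are not read as changes of these cell types. Whether these cells contribute to the members' values was not tested. Among 10 neural tube markers Olig2 was listed at 0 in both genotypes, the sums were 6.94 and 6.74 FPKM, and of 3 tested genes Irx3 fell (-0.94) and Lhx2 rose (3.21). Among 9 sensory ganglion markers 8 matched a line, and Neurog1 was listed at 0 in Ret null gut. Of 3 tested genes 1 fell and 1 rose (Isl2, 1.30). The sums were 7.95 and 12.0 FPKM, of which Isl2 alone made up 3.45 and 8.47 FPKM. Of 4 nerve root boundary cap markers 2 were untested, Egr2 among them, and Wif1 (-1.21) and Hey2 (-0.50) fell. The sums were 10.6 and 7.05 FPKM, of which Hey2 alone made up 8.85 and 6.25 FPKM. Among 7 melanoblast markers Mlana was listed at 0 in both genotypes and Tyrp1 in Ret null gut. Mitf fell (-0.99), and Kit, which other gut cells also express, rose (0.42). The sums were 19.8 and 24.4 FPKM, of which Kit alone made up 17.4 and 23.1 FPKM, so the sum follows Kit. With the normal p, Lhx2 and Isl2 were higher, and no other gene of these 4 lists passed.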

How the data were processed

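Polyadenylated RNA of E10.5 gut was sequenced, per the labels' protocols, with Illumina's TruSeq kit. The submitters' processing notes name TopHat2, Picard, Cufflinks, Cuffdiff and mm10, with no version or setting. The authors deposited 1 table with an FPKM value per genotype, a test statistic (a score), p-values and q-values, per the file headers. The columns name the genotypes by 1 letter, read as wildtype and homozygous null. Of 23234 lines, 1 with 2 records run together was not used. The authors tested 13430 lines. Adjusting the deposited p-values over tested lines by Benjamini-Hochberg gave the deposited q-values to within 5.9e-05.

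Log2 fold changes were recomputed from FPKM without a pseudocount, and each standard error is the log2 fold change divided by the statistic. Starts were raised by 1 base. Calls used the authors' Cuffdiff q under 0.05. Alternatives were q under 0.01 and 0.1, minima of 1 and 5 FPKM in the higher genotype, a 1.5-fold minimum and the normal p. Pseudocounts of 1 and 0.1 FPKM and 3 scalings were also used. Named genes were Ret, the 8 genes, and in each related list every called gene and the 2 most abundant uncalled ones. In each list of cell type markers they were up to 3 called genes by smallest q and then largest change. Some genes that the rule takes, or that the lists hold, are not reported here by name. The genes and lists were chosen with earlier results of these data known. Python 3.11.15, pandas 2.3.3 and SciPy 1.17.1 were used.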

Additional observations from a re-analysis of the deposited data

How the results depend on the processing

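The members kept 4 falls at q under 0.01, with at least 1 FPKM and with at least a 1.5-fold change. At q under 0.1, which can only add calls, there were also 4. There were 3 with at least 5 FPKM in a genotype and 3 with the normal p, Cdh19 being lost in each. Of the other glial markers, 11 passed as reported, 6 with at least a 1.5-fold change and 4 with the normal p. In the myelin and Egr2 network lists, 6 passed as reported, 3 with at least 5 FPKM, 3 with at least a 1.5-fold change and 1 with the normal p, which is Gldn and not a gene that passed as reported. Of the neurotrophin genes 2 passed as reported and 1 with the normal p. Of the family relatives 13 passed as reported, 8 at q under 0.01, 7 with at least 5 FPKM and 6 with the normal p. The cause of the lower counts with the normal p was not tested. At q under 0.1 the other glial markers gained 1 call to 12, the hedgehog genes to 8, the neurotrophin genes to 3 and the family relatives to 14. Centring on the median, equal sums and equal upper quartiles shifted all log2 fold changes by -0.01, -0.05 and -0.02, and no called gene named here changed direction. The smallest change of a called gene named here, Gas1 at -0.29, exceeds these shifts in size. No direction could therefore turn, and this is no test of the scaling. A Bonferroni adjustment was not run as a result, because the smallest deposited p times the number of tested lines is 0.67. No paired analysis was possible because the table holds 1 value per genotype, and for the same reason no replicate could be left out. The median implied error was 0.61 under a mean of 1 FPKM, where Cdh19 lies, 0.39 from 1 to 5 FPKM and 0.22 from 5 to 20 FPKM.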
